A study of Rattus norvegicus with 4 samples.

Results

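Transcripts of 6 cytokine genes were followed across cell types of the rat liver: the interleukin-1 agonists Il1a and Il1b, their receptor antagonist Il1rn, the IL-1 family member Il18, Il6 and Tnf. They were taken by symbol, as 6 of the 22118 gene symbols in the deposited matrices, and all 6 had a feature of their own (ENSRNOG00000004575, ENSRNOG00000004649, ENSRNOG00000005871, ENSRNOG00000009848, ENSRNOG00000010278 and ENSRNOG00000055156 in that order). The 4 single-cell RNA libraries came from livers of Lewis rats, an inbred strain, and there was 1 library per group. The naive liver was a control with no preservation, and the CS liver was kept for 4 h in cold storage at 4 °C. The NEVLP2 liver was perfused outside the body for 4 h at 37 °C, and the NEVLPcty liver was perfused for the same time with IL-10 and TGF-β added. Per the labels, the perfusate was made of leukoreduced red cells of Lewis rats in a culture medium that held hydrocortisone (a glucocorticoid), insulin, papaverine, heparin, antibiotics and human albumin. Neither the meaning of the digit in NEVLP2 nor the way the cells were isolated is given in the sources used here. Age and sex of the animals are likewise not given.

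IL-1α and IL-1β act through the same receptor, IL1R1, and IL-1RN occupies that receptor without signalling. IL-1β and IL-18 are made as precursors that caspase-1 cleaves in inflammasomes, whereas IL-6 signals through its receptor and the shared subunit gp130, the product of Il6st. In liver, Kupffer cells (the resident macrophages of the sinusoids) are a well known source of IL-1β, IL-6, IL-18 and TNF, and endothelial cells can make IL-1α. A transcript level is not a level of released cytokine, because processing and secretion follow later.

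A total of 35363 cells were retained, 3297, 10472, 9978 and 11616 (naive, CS, NEVLP2, NEVLPcty), from matrices of 25609611, 67431270, 65893218 and 72271060 unique molecular identifiers (UMIs, each counting 1 captured transcript). The share of barcodes over the mitochondrial limit was 13.9% in naive and 1.11 to 4.28% in the other libraries. Clustering without the 6 genes gave 40 clusters, of which 31 took a cell type name from fixed marker lists. The suffix -like means that a name rests on transcripts only. A level is the UMIs of a gene per 1000000 UMIs of a class in a library (CPM), and intervals are exact 95% limits that cover counting error only. With 1 library per group no test of treatment was possible, and treatment, animal and preparation cannot be told apart. CPM values are counts of molecules and are not divided by gene length, so levels are compared between libraries and classes, not between genes.

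Kupffer-like cells were 168, 1151, 790 and 481 (naive, CS, NEVLP2, NEVLPcty). They fell into 4 clusters, and different clusters held them in the control and perfused libraries. Clusters 12 and 22 held most of those in naive and CS, and clusters 15 and 21 those in NEVLP2 and NEVLPcty. Clusters 12 and 21 carried the Kupffer cell genes Clec4f and Vsig4 at high levels (Clec4f 10202 CPM in cluster 12 of CS and 5507 CPM in cluster 21 of NEVLP2). Clec4f was lower in cluster 22 of CS (1895 CPM) and cluster 15 of NEVLP2 (1096 CPM), which had more Lyz2, a lysozyme gene of macrophages and granulocytes. Monocyte or macrophage-like cells were likewise split between clusters 23 and 24 (naive, CS) and clusters 18 and 27 (perfused). Endothelial-like cells were in clusters 2 and 11 in naive and CS and in clusters 0 and 10 in the perfused livers. Neutrophil-like cells were cluster 32 in naive (76 cells) and almost all cluster 29 in NEVLP2 (209 cells of the class), while CS had 18 and NEVLPcty 12, too few to give a level.

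The naive library contained 121 cells that grouped with cells of the perfused livers, in clusters 4, 14, 15 and 21. Their median depths were 567, 631, 607 and 686 UMIs, against 5742 to 20837 UMIs for NEVLP2 cells of the same clusters, and 13 of the 121 had at least 2000 UMIs. None of their barcodes occurred in another library. They held 58 of the 63 naive Il6 UMIs and 717 of the 4121 naive Il1b UMIs. The naive levels of Il1b, Il1rn and Il18 in Kupffer-like and conventional dendritic-like cells are therefore also given over cells with at least 2000 UMIs, a limit chosen after seeing the data. UMIs of Il1b also turned up in classes that are not known sources of it. After thinning each cell to 1000 UMIs, Il1b was seen in 4.08% of B-like, 6.36% of T-like and 12.7% of hepatocyte-like cells of NEVLP2. The unthinned shares were 30.7, 29.1 and 20.3%, at median depths of 4823, 7207 and 1406 UMIs. In CS the thinned shares were 0.28, 0.617 and 0.653%.

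Of the 6 genes, Il6 had the promoter with most matches to known inflammatory motifs. The 250 bases before each gene start were searched on both strands for the NF-kB consensus (by name), the C/EBP motif TTGNNCAA, the cAMP response element TGACGTCA, the AP-1 motif TGANTCA and the TATA motif TATAAA. All 6 genes had an entry among the RefSeq promoters (GRCr8 build). Among 33469 RefSeq promoters of the same length, 3.54% held the NF-kB consensus, 5.25% the C/EBP motif, 1.59% the cAMP response element, 6.34% the AP-1 motif and 12.9% the TATA motif. The sequences of Il6, Il1a and Il1b are shown because the results below turn on these 3 genes together with Il1rn. They read 5′ to 3′ on the strand of the gene, and capitals mark the matches.
Il6, chr4:5894576-5894825, minus strand: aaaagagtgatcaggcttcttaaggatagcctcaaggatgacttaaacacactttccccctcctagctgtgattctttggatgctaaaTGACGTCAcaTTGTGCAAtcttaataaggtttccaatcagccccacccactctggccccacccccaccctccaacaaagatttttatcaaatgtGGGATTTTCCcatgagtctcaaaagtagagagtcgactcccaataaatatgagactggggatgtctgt
Il1a, chr3:136990018-136990267, minus strand: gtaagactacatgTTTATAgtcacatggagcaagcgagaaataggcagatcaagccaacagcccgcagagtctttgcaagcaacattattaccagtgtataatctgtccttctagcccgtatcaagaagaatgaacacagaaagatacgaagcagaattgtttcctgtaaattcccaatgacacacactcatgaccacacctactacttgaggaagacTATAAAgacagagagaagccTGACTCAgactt
Il1b, chr3:137036582-137036831, minus strand: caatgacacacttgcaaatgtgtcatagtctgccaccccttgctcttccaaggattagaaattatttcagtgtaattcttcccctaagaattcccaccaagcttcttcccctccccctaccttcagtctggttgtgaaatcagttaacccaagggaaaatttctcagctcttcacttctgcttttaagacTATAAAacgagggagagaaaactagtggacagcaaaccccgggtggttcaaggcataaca
Il6 had 1 match each to the cAMP response element (from base -162), the C/EBP motif (from -152) and the NF-kB consensus (from -68), counted back from the gene start. Il1a had an AP-1 match at -12, beside TATA matches at -32 and -237, and Il1b had a TATA match at -60. No motif searched overlapped another in these 3 windows. Il1rn and Tnf each held 1 TATA match, and Il18 held none of the 5 motifs. A match describes the letters in this window and says nothing of binding in these cells.

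Endothelial-like cells, not myeloid cells, held most of the Il1a UMIs in CS and NEVLPcty. IL-1α is an IL-1 agonist that is active without cleavage and is released by damaged cells. The retained cells held 67, 4545, 9043 and 15304 Il1a UMIs (naive, CS, NEVLP2, NEVLPcty). Endothelial-like cells carried 87.2% of those in CS and 89.2% in NEVLPcty. In NEVLP2 they carried 10.0%, and 60.9% came from unnamed clusters. Of the NEVLP2 UMIs, 56.4% were in cluster 4 alone, which held 1801 NEVLP2 cells and took no name. Cluster 4 carried the endothelial genes Cdh5 (1072 CPM) and Kdr (539.8 CPM) and was led by Tfpi2, Csf2, Ccl2 and Il23a. Only 28 naive cells were endothelial-like (0.849%), whereas the class made up 39.3, 4.89 and 55.0% of the retained cells in CS, NEVLP2 and NEVLPcty. Library totals of Il1a depend on these shares, so levels within the class are compared next.

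The level of Il1a in endothelial-like cells was 147 CPM in naive (96.1 to 216), 163 CPM in CS (158 to 168), 361 CPM in NEVLP2 (338 to 385) and 349 CPM in NEVLPcty (344 to 355). Both perfused livers thus lay above both controls, and neither pair differed beyond counting error within itself. NEVLP2 was 2.21-fold above CS (2.06 to 2.38), and NEVLPcty was 0.968 times NEVLP2 (0.905 to 1.04). Among all genes in these cells the median log2 ratio of NEVLP2 to CS was -0.66 and 13.2% were at least 2-fold higher, while for NEVLPcty over NEVLP2 the median was 0.15. Cluster 4 had a level of 486 CPM (473 to 500) in NEVLP2 and 376 CPM (318 to 442) in its 65 NEVLPcty cells. After thinning, Il1a was seen in 30.0% of endothelial-like cells of NEVLP2 and in 27.4% of NEVLPcty, against 0% of B-like cells in each, which allows a share of up to 3.06 and 6.25%. It was not particular to endothelial-like cells. Stellate or fibroblast-like cells had 437 CPM (381 to 498) and a thinned share of 36.2% in NEVLP2, and 231 CPM and 15.1% in NEVLPcty. NK-like cluster 34 had 225 CPM and 25% in its 52 NEVLPcty cells.

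Kupffer-like cells held 22.4, 1.89, 19.8 and 1.35% of the Il1a UMIs of naive, CS, NEVLP2 and NEVLPcty. Their level was 7.97 CPM in naive, 5.17 CPM in CS, 156 CPM in NEVLP2 and 35.5 CPM in NEVLPcty. NEVLP2 was 30.2-fold above CS (24.3 to 38.0), and NEVLPcty was 4.40-fold below NEVLP2 (3.81 to 5.10). Of the 15 naive UMIs, 14 were in shallow cells, and over cells with at least 2000 UMIs the naive level was 0.545 CPM from 1 UMI. In NEVLP2 the level was 231 CPM in cluster 21 and 92.5 CPM in cluster 15. The plot of levels by class sets these sources beside each other.

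**Figure D1:**
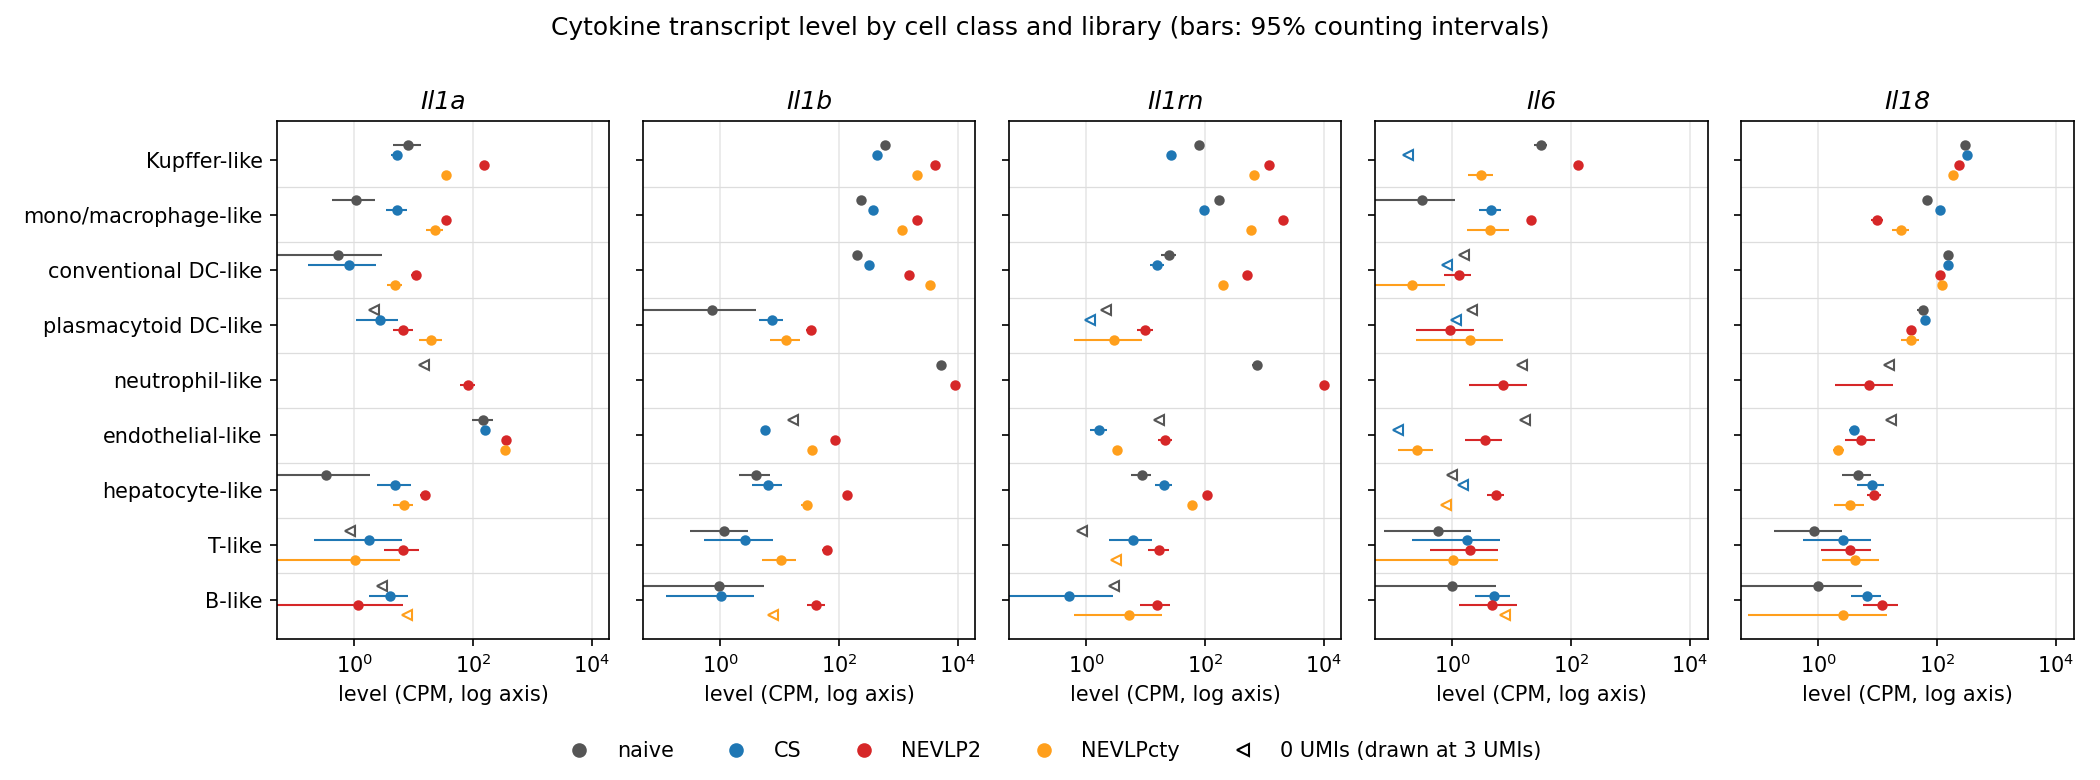
Level of each gene (CPM, log axis) by cell class and library; points are library sums, bars are exact 95% counting intervals, and open triangles mark 0 UMIs, drawn at the level of 3 UMIs. Il1a is higher in endothelial-like than in Kupffer-like cells of every library (361 against 156 CPM in NEVLP2), and Il1b and Il1rn are highest in neutrophil-like cells of naive and NEVLP2. Stellate or fibroblast-like and NK-like cells are among the classes not drawn.

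Among named classes Il1b came from 4, all myeloid, and unnamed clusters also held at least 5% of its UMIs in a library. In naive and NEVLP2 its level was highest in neutrophil-like cells, which were too few for a level in the other libraries. IL-1β is the inducible IL-1 agonist of activated macrophages and monocytes. Its retained UMIs numbered 4121, 10915, 91825 and 51271 (naive, CS, NEVLP2, NEVLPcty). Kupffer-like cells held 27.6% of them in the naive, 67.4% in the CS, 52.0% in the NEVLP2 and 23.3% in the NEVLPcty library. Conventional dendritic-like cells held 9.29, 10.8, 19.6 and 63.2% in the same order, and monocyte or macrophage-like cells 36.9, 17.6, 17.8 and 3.61%. Neutrophil-like cells held 25.02% in naive and 5.58% in NEVLP2. The leading source was thus monocyte or macrophage-like in naive, Kupffer-like in CS and NEVLP2, and dendritic-like in NEVLPcty. These shares depend on how many cells of each class a library held.

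In Kupffer-like cells Il1b stood at 604 CPM in naive (569 to 640), 442 CPM in CS (432 to 453), 4177 CPM in NEVLP2 (4139 to 4214) and 2051 CPM in NEVLPcty (2014 to 2088). Over cells with at least 2000 UMIs naive was 328 CPM, below CS at 443 CPM, so the order of the controls turned when shallow cells were left out. NEVLP2 was 9.44-fold above CS (9.21 to 9.68) and 6.92-fold above naive (6.52 to 7.34), or 12.7-fold above naive over the deeper cells. When each cell weighed the same, the log2 ratio of NEVLP2 to naive was -0.25 in place of 2.79. The 37 naive cells of cluster 21 stood at 15438 CPM, and their part in that shift was not tested. NEVLPcty was 2.04-fold below NEVLP2 (1.996 to 2.08). The thinned share of Kupffer-like cells with Il1b was 27.5% in CS, 88.8% in NEVLP2 and 62.7% in NEVLPcty.

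Among Kupffer-like cells, Il1b was at a similar level in both types of cluster. In CS it stood at 472 CPM in cluster 12 (high Clec4f) and 376 CPM in cluster 22 (low Clec4f). In NEVLP2 the value was 4678 CPM in cluster 21 (high Clec4f) and 3767 CPM in cluster 15 (low Clec4f). In NEVLPcty clusters 21 and 15 had 2069 and 2094 CPM. Every perfused cluster was above both CS clusters.

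Monocyte or macrophage-like cells had 232 CPM of Il1b in naive (221 to 244), 374 CPM in CS (358 to 391), 2087 CPM in NEVLP2 (2055 to 2119) and 1144 CPM in NEVLPcty (1092 to 1197). This is the same order as in the deeper Kupffer-like cells, with NEVLP2 5.57-fold above CS (5.32 to 5.85). NEVLPcty was 1.83-fold below NEVLP2 (1.74 to 1.92). In NEVLP2 cluster 27, led by Vcan, had 3018 CPM and cluster 18 had 1232 CPM, and in NEVLPcty cluster 18 had 640 CPM. Cluster 27 had 12 NEVLPcty cells, too few for a level. Neutrophil-like cells stood at 5221 CPM in naive (4907 to 5549) and 8958 CPM in NEVLP2 (8714 to 9207), a ratio of 1.72 (1.60 to 1.84).

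Conventional dendritic-like cells went the other way between the 2 perfused livers. Their Il1b level was 203 CPM in naive (184 to 225), 317 CPM in CS (299 to 336), 1527 CPM in NEVLP2 (1505 to 1549) and 3414 CPM in NEVLPcty (3377 to 3452). Over cells with at least 2000 UMIs naive stood at 175 CPM (156 to 195). NEVLPcty was thus highest here, 2.24-fold above NEVLP2 (2.20 to 2.28), where 12.3% of 10664 genes were at least 2-fold higher and the median log2 ratio was 0.15. The ratio was above 1 in both clusters of the class. Cluster 14, led by Ccl22, Cd207, Ccl17 and Clec10a, went from 2391 CPM in NEVLP2 to 4372 CPM in NEVLPcty. Cluster 20, which held the cross-presenting cell marker Xcr1, went from 263.5 to 933 CPM. Cluster 14 carried few transcripts of the dendritic cell gene Flt3 (5.86 and 8.47 CPM in NEVLP2 and NEVLPcty), and its Clec10a was 2595 CPM in NEVLP2 and 332 CPM in NEVLPcty. NEVLP2 was 4.81-fold above CS (4.54 to 5.11) over the class. Within cluster 20, however, Il1b stood at 295 CPM in CS and 263.5 CPM in NEVLP2, and cluster 14 had only 19 CS cells. Where cells were classed one by one from their marker transcripts, the log2 ratio of NEVLP2 to CS was -0.54 in place of 2.27, so this direction depends on how the cells were classed.

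**Figure D2:**
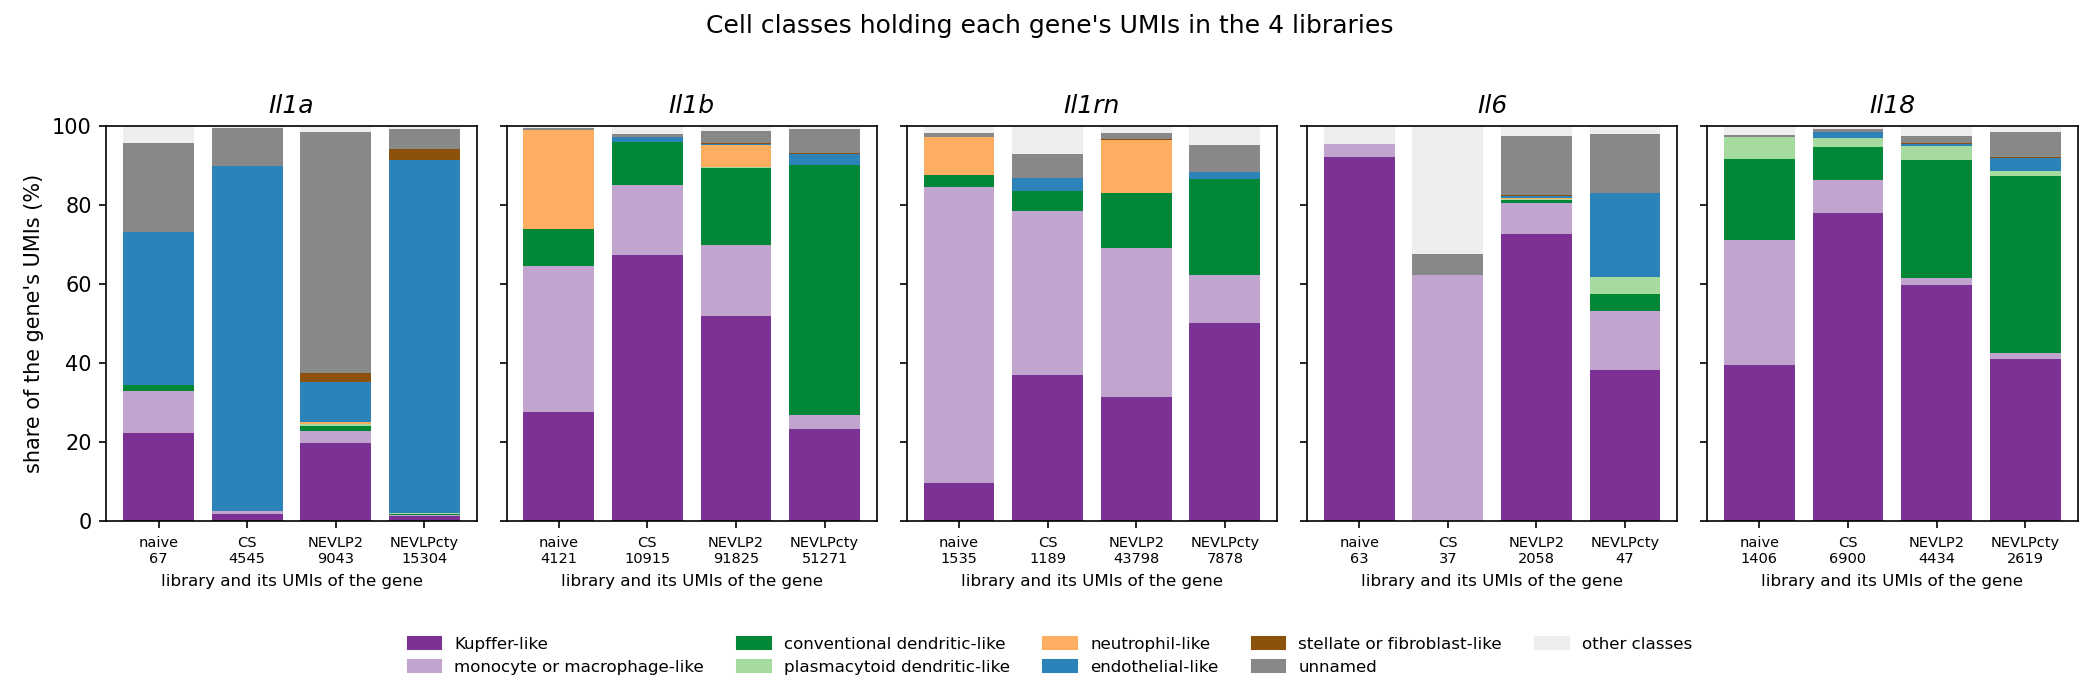
Share of the UMIs of each gene (%) held by each cell class, 1 bar per library, with the number of UMIs under each bar; Tnf is left out. Endothelial-like and unnamed cells together hold most of the Il1a of the 3 preserved livers, with a further 19.8% in Kupffer-like cells of NEVLP2, and conventional dendritic-like cells hold 63.2% of Il1b in NEVLPcty against 19.6% in NEVLP2.

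Among named classes the antagonist Il1rn came from the same 4 as Il1b, and unnamed clusters also held at least 5% of its UMIs in a library. In each of the 4 classes its ratio of NEVLP2 to naive was larger than that of Il1b. Its retained UMIs were 1535, 1189, 43798 and 7878 (naive, CS, NEVLP2, NEVLPcty). Monocyte or macrophage-like cells held 74.8% of them in the naive, 41.5% in the CS, 37.6% in the NEVLP2 and 12.1% in the NEVLPcty library. Kupffer-like cells held 9.71, 37.0, 31.4 and 50.2% in that order. In monocyte or macrophage-like cells the level was 175 CPM in naive (165 to 186), 96.1 CPM in CS (87.8 to 105), 2098 CPM in NEVLP2 (2066 to 2130) and 591 CPM in NEVLPcty (554 to 629). NEVLP2 was 11.96-fold above naive (11.3 to 12.7) and 21.8-fold above CS (19.95 to 23.9). NEVLPcty was 3.55-fold below NEVLP2 (3.33 to 3.79), yet both perfused livers lay above both controls. In NEVLP2 cluster 27 had 2927 CPM, and NEVLPcty had only 12 cells of it. Cluster 18 had 1354 CPM in NEVLP2 and 522 CPM in NEVLPcty.

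Kupffer-like cells had 79.2 CPM of Il1rn in naive, 26.5 CPM in CS, 1205 CPM in NEVLP2 and 679 CPM in NEVLPcty. The naive value was 55.6 CPM over cells with at least 2000 UMIs. NEVLP2 was 45.5-fold above CS (41.4 to 50.2), and NEVLPcty was 1.77-fold below NEVLP2 (1.71 to 1.84). Unlike Il1b, Il1rn differed between the types of Kupffer-like cluster. In NEVLP2 it stood at 1894 CPM in cluster 15 (low Clec4f) and 411 CPM in cluster 21 (high Clec4f), and in NEVLPcty at 900.5 and 50.2 CPM. The last value rests on 69 UMIs, 35 of them in 1 cell. In NEVLPcty hepatocyte-like cluster 7 had 63.8 CPM, endothelial-like cluster 0 had 3.05 CPM and T-like cells had 0. In NEVLP2 hepatocyte-like cluster 1 had 107.5 CPM, against 15.3 CPM in B-like and 16.7 CPM in T-like cells. Whether hepatocyte-like cells make Il1rn was not tested, so their level is not taken as a background. In CS the order was the same, with 65.2 CPM in cluster 22 (low Clec4f) and 9.97 CPM in cluster 12 (high Clec4f). Neutrophil-like cells had the highest level of the classes in these 2 libraries, 739 CPM in naive (624 to 869) and 10198 CPM in NEVLP2 (9938 to 10464), a ratio of 13.8 (11.7 to 16.4). Conventional dendritic-like cells had 24.4, 15.6, 518 and 201 CPM in naive, CS, NEVLP2 and NEVLPcty, and naive stood at 15.65 CPM (10.5 to 22.5) over cells with at least 2000 UMIs.

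The balance of antagonist to agonist was taken as Il1rn UMIs per 100 Il1b UMIs in the same cells. In monocyte or macrophage-like cells it was 75.5, 25.7, 100.5 and 51.7 (naive, CS, NEVLP2, NEVLPcty). Kupffer-like cells had 13.1, 5.98, 28.9 and 33.1. The last 2 values depend on the cluster makeup, as cluster 15 (low Clec4f) held 396 of 790 NEVLP2 and 312 of 481 NEVLPcty cells. Within each of clusters 15 and 21, Il1rn was lower in NEVLPcty by a larger ratio than Il1b. The balance was thus lower in NEVLPcty than in NEVLP2 in both clusters. Conventional dendritic-like cells had 12.01, 4.92, 33.9 and 5.89, so over the class NEVLPcty was near CS. The class was mostly cluster 20 in CS (160 of 179 cells) and mostly cluster 14 in NEVLPcty (366 of 507), so different cells are compared. Within cluster 20 Il1rn was 4.37 CPM in CS and 43.9 CPM in NEVLPcty, a larger ratio than that of Il1b. The lower balance in NEVLPcty than in NEVLP2 follows from more Il1b and less Il1rn over the class. Its intervals were 32.9 to 34.9 in NEVLP2 and 5.62 to 6.17 in NEVLPcty. Neutrophil-like cells had 14.2 in naive and 114 in NEVLP2. Over cells with at least 2000 UMIs the naive balance was 16.9 (13.6 to 20.9) in Kupffer-like and 8.95 (5.90 to 13.1) in conventional dendritic-like cells. CS had the lowest value in each of the 3 classes, and in dendritic-like cells its interval (3.71 to 6.41) overlapped that of NEVLPcty. Thinned to 1000 UMIs, 39.4% of NEVLP2 Kupffer-like cells held both transcripts and 49.4% held Il1b only, and 68.1% of NEVLPcty dendritic-like cells held Il1b only.

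**Figure D3:**
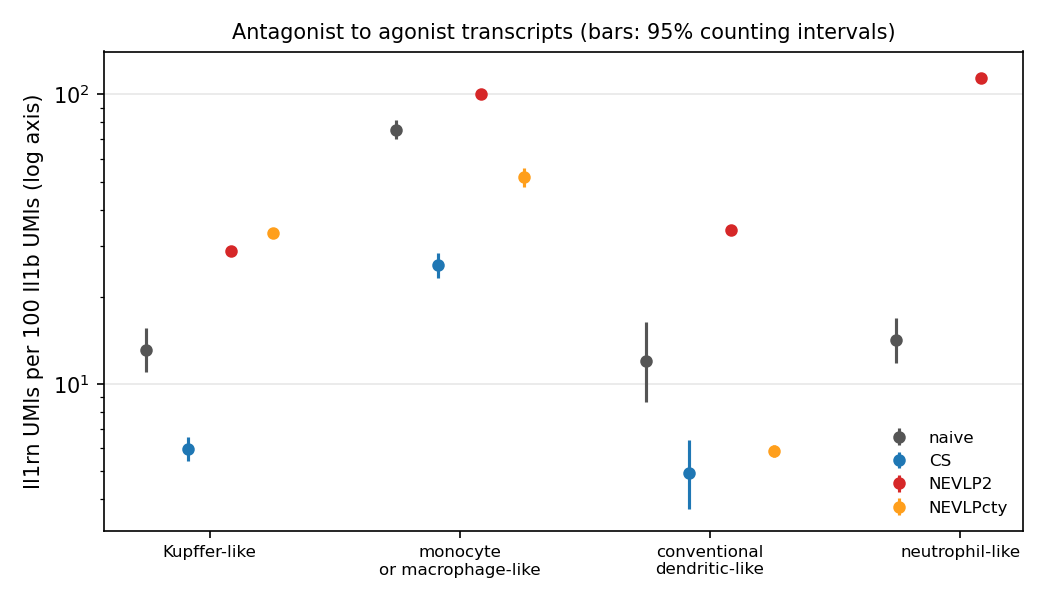
Il1rn UMIs per 100 Il1b UMIs (log axis) in 4 cell classes, 1 point per library with its exact 95% counting interval. The NEVLPcty point of conventional dendritic-like cells is at 5.89 against 33.9 in NEVLP2, and neutrophil-like cells of NEVLP2 are at 114.

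Il6 was rare outside NEVLP2, and there it was held by few cells. IL-6 is the main inducer of the acute-phase response of hepatocytes. The retained UMIs were 63, 37, 2058 and 47 (naive, CS, NEVLP2, NEVLPcty). In NEVLP2 360 of 9978 cells had a UMI of Il6, and 33 cells held 50% of the UMIs. In CS 1 cell of cluster 37 held 22 of the 37 UMIs. Kupffer-like cells held 72.6% of the NEVLP2 UMIs, and 59.8% were in cluster 21 (high Clec4f) alone.

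In Kupffer-like cells the level of Il6 was 30.8 CPM in naive (23.4 to 39.9), 0 in CS, 131 CPM in NEVLP2 (124 to 138) and 3.09 CPM in NEVLPcty (1.83 to 4.88). All 58 naive UMIs came from the shallow cells, 56 of them from 37 cells of cluster 21, and naive was at 0 over the 106 cells with at least 2000 UMIs. Over those cells the 3 UMIs that a count of 0 allows correspond to 1.63 CPM in naive and 0.181 CPM in CS. With a count of 0 set to 3 UMIs, NEVLP2 was 724-fold higher than CS (lower limit 588). Over the deeper cells it was 79.6-fold higher than naive (lower limit 64.6). Over all naive cells it was 4.24-fold higher (3.26 to 5.61), with a log2 ratio of 2.08, or -1.82 when each cell weighed the same. NEVLPcty was 42.3-fold below NEVLP2 (26.7 to 71.6), where the median log2 ratio of all genes was 0.08. Within NEVLP2, cluster 21 had 233.5 CPM (221 to 247) and cluster 15 had 42.9 CPM (37.9 to 48.4). In NEVLPcty they had 8.01 and 1.62 CPM.

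A second NEVLP2 source of Il6 was cluster 26, which took no name and was led by the vascular genes Selp, Vwf and Sele. Its 101 NEVLP2 cells had 229 CPM (199 to 262) from 216 UMIs in 14 cells, 66 of them in 1 cell. Its 191 NEVLPcty cells had 4.74 CPM (1.91 to 9.76). Monocyte or macrophage-like cells had 0.305 CPM in naive, 4.49 CPM in CS, 20.9 CPM in NEVLP2 and 4.33 CPM in NEVLPcty. In NEVLP2 151 of the 164 UMIs were in cluster 27, and the CS value rests on the 1 cell with 22 UMIs. The thinned share of cells with Il6 in NEVLP2 was 8.41% of Kupffer-like cells (6.52 to 10.6%) against 0.524% of hepatocyte-like cells (0.279 to 0.895%).

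**Figure D4:**
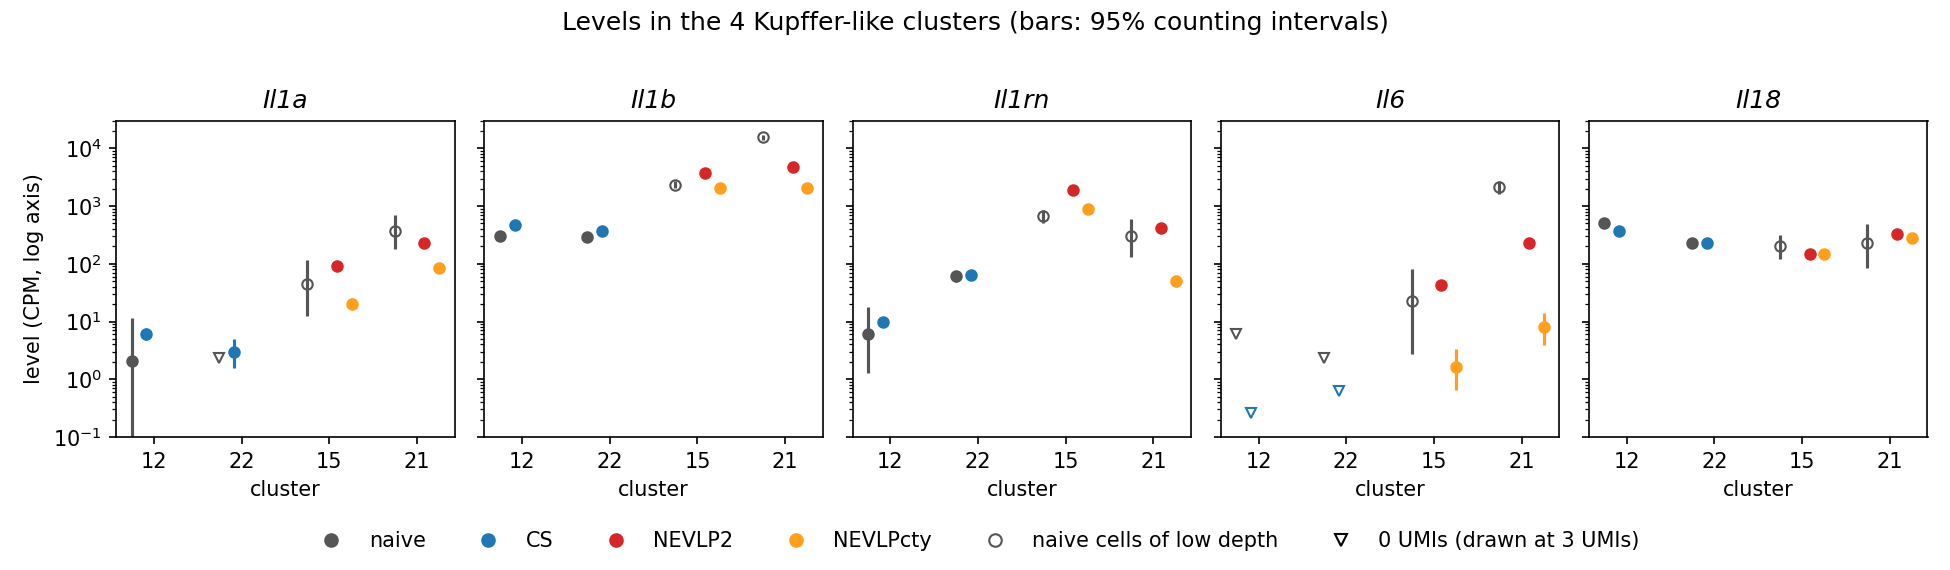
Level of each gene (CPM, log axis) in the 4 Kupffer-like clusters by library, with exact 95% counting intervals; clusters 12 and 21 have high Clec4f, open circles are naive cells of low depth and open triangles mark 0 UMIs, drawn at 3 UMIs. Il6 stands at 233.5 CPM in cluster 21 and 42.9 CPM in cluster 15 of NEVLP2, whereas Il1rn is higher in cluster 15, at 1894 against 411 CPM.

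Tnf, the gene of tumour necrosis factor, was all but absent from the matrices, with 2 UMIs in 35363 cells. NEVLP2 and NEVLPcty had 1 UMI each, and naive and CS had 0. Counting 3 UMIs as the limit that a count of 0 allows, the level was at most 0.129 CPM in naive and 0.0467 CPM in CS. All deposited barcodes together held the same 2 UMIs. No source or difference can be read from these counts, and why they are so low was not tested. The receptors of TNF were measured. Tnfrsf1b had 429 CPM in monocyte or macrophage-like cells of NEVLP2 against 79.6 CPM in CS, and Tnfrsf1a had 331 CPM in endothelial-like cells of CS.

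Il18 differed less between the libraries than the other genes with a level did in Kupffer-like cells, but not in monocyte or macrophage-like cells. IL-18 is made constitutively as a precursor and drives interferon-γ production by T and NK cells. Its retained UMIs were 1406, 6900, 4434 and 2619 (naive, CS, NEVLP2, NEVLPcty). Kupffer-like cells held 39.6, 77.9, 59.7 and 41.0% of them, and conventional dendritic-like cells 20.3, 8.28, 29.8 and 44.6%. In Kupffer-like cells the level was 296 CPM in naive (272 to 322; also 296 CPM over the deeper cells), 324 CPM in CS (315 to 332), 232 CPM in NEVLP2 (223 to 240) and 184 CPM in NEVLPcty (174 to 196). NEVLP2 was 1.40-fold below CS (1.33 to 1.46), a log2 ratio of -0.48 beside a median of -0.54 over all genes. Relative to that median Il18 was therefore level in NEVLP2 and CS. NEVLPcty was 1.25-fold below NEVLP2 (1.17 to 1.35).

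In dendritic-like cells Il18 stood at 152 (150.5 over the deeper cells), 154, 112 and 123 CPM in naive, CS, NEVLP2 and NEVLPcty, and in plasmacytoid dendritic-like cells at 57.1, 62.0, 36.1 and 35.7 CPM. Monocyte or macrophage-like cells had 67.8 CPM in naive (61.6 to 74.4), 113 CPM in CS (104 to 123), 9.69 CPM in NEVLP2 and 24.7 CPM in NEVLPcty. NEVLP2 was 11.7-fold below CS in them (9.19 to 15.1), beside a median log2 ratio of -0.72 over all genes. Here the clusters of the class differed before preservation too. In naive, cluster 24 had 97.8 CPM and cluster 23 had 11.5 CPM, and in NEVLP2 clusters 27 and 18 had 12.6 and 6.77 CPM. Cluster 24 held 238 of the 384 cells of the class in CS and 172 of 515 in naive.

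Kupffer-like cells were a source of 5 of the 6 genes. At least 2-fold higher in NEVLP2 than in CS were 4 of the 5 genes other than Tnf (Il1a, Il1b, Il1rn and Il6), against 9.63% of 11552 genes in these cells. The same 4 genes were at least 2-fold higher in NEVLP2 than in naive, against 12.4% of 10340 genes. No member was at least 2-fold lower in either, against 34.8 and 28.8% of genes. Both comparisons share the NEVLP2 library. Between CS and naive none was at least 2-fold higher, against 7.41% of genes, and Il1rn and Il6 were at least 2-fold lower, against 6.84%. For Il6 that ratio vanished over the deeper cells, where both libraries had 0 UMIs, and Il1a was then 9.44-fold higher in CS from 1 naive UMI (1.65 to 377). At least 2-fold lower in NEVLPcty than in NEVLP2 were 3 of the 5 (Il1a, Il1b and Il6), against 6.67% of genes, and none was at least 2-fold higher, against 9.49%. Within clusters 15 and 21, Il1a and Il6 were at least 2-fold lower in both, but Il1b was less than 2-fold lower in cluster 15. Il1rn, 1.77-fold lower over the class, went from 1894 to 900.5 CPM in cluster 15 and from 411 to 50.2 CPM in cluster 21. The calls for Il1b and Il1rn thus depend on the cluster makeup. The median log2 ratio over all genes was -0.37 for NEVLP2 over naive and -0.54 for NEVLP2 over CS, so scaling to that median would raise each NEVLP2 ratio.

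Monocyte or macrophage-like cells were a source of 4 of the genes. At least 2-fold higher in NEVLP2 than in CS were 3 of them (Il1b, Il1rn and Il6), against 10.2% of all genes, and Il18 was lower, against 42%. The same split held against naive, beside 11.2% of genes higher and 40.8% lower, so a 2-fold lower level was common among genes there. The Il18 log2 ratio was -3.55 against CS and -2.81 against naive, beside medians over all genes of -0.72 and -0.69. Its NEVLP2 level of 9.69 CPM was near the 8.72 CPM of hepatocyte-like cluster 1 of that library. In NEVLPcty Il1rn and Il6 were at least 2-fold below NEVLP2, against 6.45% of genes, and Il18 was 2.55-fold higher (1.70 to 3.79), against 18.9%. Cluster 27, with 254 NEVLP2 and 12 NEVLPcty cells, held 151 of the NEVLP2 Il6 UMIs. In cluster 18, which both libraries shared, Il1rn was 1354 CPM in NEVLP2 and 522 CPM in NEVLPcty. Il6 had 7 UMIs there in NEVLP2 and 0 in NEVLPcty, too few to read a difference. In CS only Il6 was at least 2-fold above naive, from 1 cell, against 8.72%. Of the 3 genes with a source in conventional dendritic-like cells, Il1b and Il1rn were at least 2-fold higher in NEVLP2 than in CS and in naive, against 11.4 and 12.3% of genes. The class was mostly cluster 20 in naive and CS (78 and 160 cells) and mostly cluster 14 in NEVLP2 (340 cells). Within cluster 20 Il1rn was at 12.96, 4.37 and 93.1 CPM in naive, CS and NEVLP2. There Il1b of NEVLP2 was below CS and less than 2-fold above naive, so both Il1b calls depend on the cluster makeup. Neutrophil-like cells of NEVLP2 were at least 2-fold above naive for Il1rn but not for Il1b, against 16.3%, and endothelial-like cells were so for Il1a at 2.45-fold (1.66 to 3.77), against 12.4%. The neutrophil-like ratios set cluster 32 of naive against mostly cluster 29 of NEVLP2. These clusters differed in the neutrophil genes S100a8 (26256 and 1683 CPM) and Csf3r (1210 and 380 CPM).

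**Figure D5:**
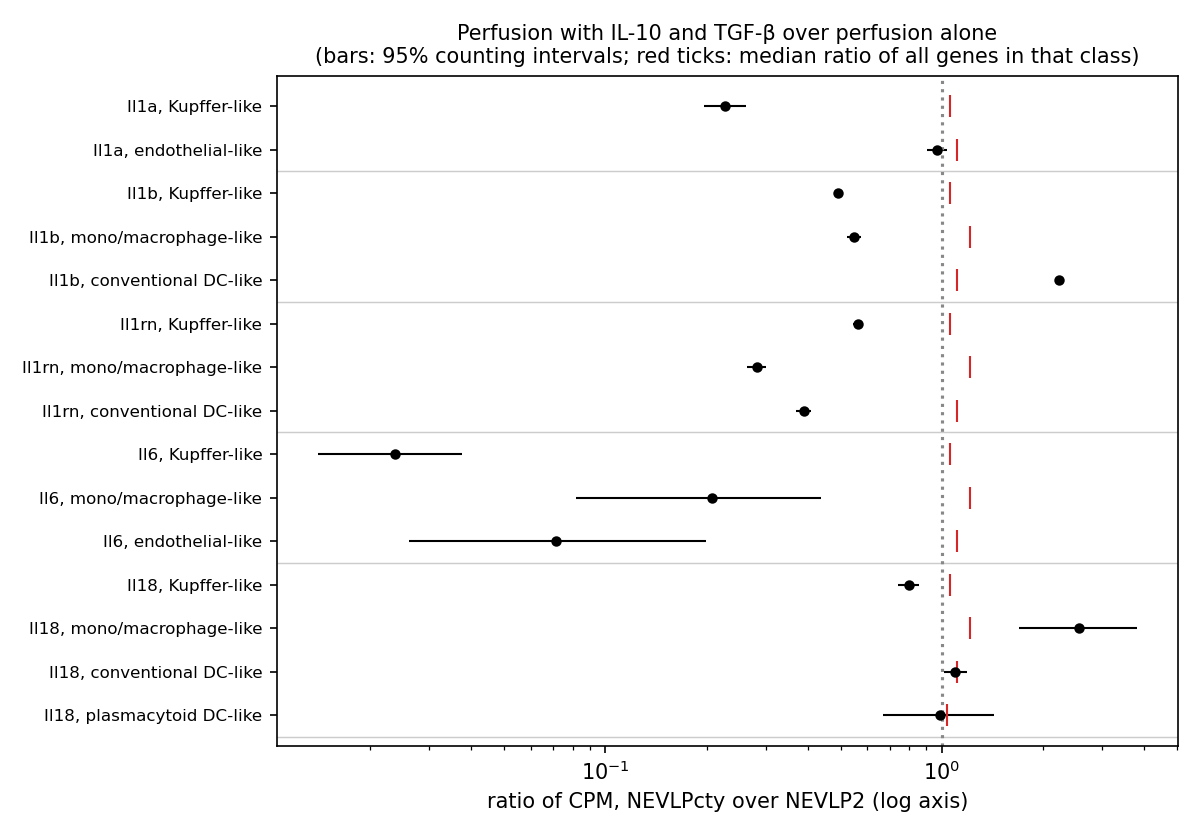
Ratio of levels, NEVLPcty over NEVLP2 (log axis), for each gene in its source classes; bars are exact 95% counting intervals and red ticks the median ratio of all genes in the class. Il1b is 2.24 in conventional dendritic-like cells and 0.491 in Kupffer-like cells, and Il6 in Kupffer-like cells is 0.0236.

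Receptors and decoys set which cells can respond. Il1r1, the signalling receptor of IL-1, had 84.2% of its UMIs in endothelial-like cells in CS and in NEVLPcty, at levels of 54.2 and 43.2 CPM. In NEVLP2 these cells had 16.1% of them and 39.0 CPM, below cholangiocyte-like cells at 85.5 CPM. Il1r2, a decoy receptor that binds IL-1 without signalling, was highest in neutrophil-like cells where they had a level, at 982 CPM in naive and 2581 CPM in NEVLP2. In Kupffer-like cells Il1r2 was 5.53 CPM in CS, 15.2 CPM in NEVLP2 and 108 CPM in NEVLPcty, so that NEVLPcty was 7.07-fold above NEVLP2 (5.97 to 8.41). In conventional dendritic-like cells it was 67.9 CPM in NEVLP2 and 188 CPM in NEVLPcty, a ratio of 2.78 (2.55 to 3.02). The IL-1 decoy was thus higher in NEVLPcty in both classes, whereas Il1rn was lower in both. Il6r, the IL-6 receptor, went from 93.2 CPM in CS Kupffer-like cells to 12.5 CPM in NEVLP2, 7.45-fold lower (6.28 to 8.91). Il6st was highest in endothelial-like cells, with 843, 458, 311 and 313 CPM in naive, CS, NEVLP2 and NEVLPcty. Il18bp, which neutralises IL-18, was highest in Kupffer-like cells, at 367, 555, 332.5 and 335 CPM in naive, CS, NEVLP2 and NEVLPcty, and Il18rap was highest in NK-like cells, at 94.3, 110, 155.5 and 73.3 CPM.

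Genes that these cytokines are known to induce were higher in NEVLP2 in Kupffer-like cells. All 7 of that list (Ptgs2, Nos2, Sod2, Cxcl1, Cxcl2, Ccl2 and Icam1) were at least 2-fold above CS, against 9.63% of all genes, with a median log2 ratio of 4.44, against -0.54. Sod2, a mitochondrial superoxide dismutase, was at 374 CPM in CS and 6983 CPM in NEVLP2. Ccl2, a monocyte chemokine, was at 52.6 and 3722 CPM. Against naive 7 of 7 were also at least 2-fold higher in NEVLP2, against 12.4% of genes, with a median of 3.19. In CS 4 of the 6 measured were at least 2-fold below naive, against 6.84% of genes, or 3 of 6 over cells with at least 2000 UMIs, against 7.11%, where Ccl2 was 307 CPM in naive and 52.3 CPM in CS. In NEVLPcty 3 of 7 were at least 2-fold below NEVLP2, against 6.67% of genes, among them Nos2, the inducible nitric oxide synthase, at 66.1 CPM in NEVLP2 and 12.9 CPM in NEVLPcty.

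In endothelial-like cells, the main Il1a source in CS and NEVLPcty, all 6 measured genes of this list were at least 2-fold higher in NEVLP2 than in CS, against 13.2% of genes, and 4 of 6 were at least 2-fold lower in NEVLPcty than in NEVLP2, against 13.3% of genes. The neutrophil chemokine Cxcl1 was at 126 CPM in CS, 21246 CPM in NEVLP2 and 8147 CPM in NEVLPcty. Il23a was at 97.5 CPM in NEVLP2 and 4.66 CPM in NEVLPcty, 20.9-fold lower (17.2 to 25.5). Il1a of the same class was equal in both within counting error, but the class leaves out cluster 4. That unnamed cluster held most of the NEVLP2 Il1a UMIs. Its Il1a level was 486 CPM in NEVLP2 (473 to 500) and 376 CPM in NEVLPcty (318 to 442).

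Sensing and processing genes did not move as 1 group in Kupffer-like cells. Of 6 measured sensing genes, 3 were at least 2-fold higher and 2 lower in NEVLP2 than in CS, beside 9.63% of all genes higher and 34.8% lower, so the lower count is near the background. Cd14, the lipopolysaccharide co-receptor, was at 141 CPM in CS, 2512 CPM in NEVLP2 and 789 CPM in NEVLPcty, while Tlr4 was at 44.2 CPM in CS and 8.66 CPM in NEVLP2. Of 10 processing and release genes, 1 was higher and 4 were lower. Pycard, the inflammasome adaptor, was at 566 CPM in CS and 51.1 CPM in NEVLP2, 11.1-fold lower (10.2 to 12.1), and Casp1 was at 179 and 82.5 CPM. Over the deeper cells 5 of the 10 were lower. Against the background of 34.8% of all genes at least 2-fold lower in this comparison, 4 of 10 is not a result about the list. Of 8 restraint genes, 5 were higher, against 9.63% of genes, and 2 lower, a share below the 34.8% of all genes. Zc3h12a, an RNase that degrades Il6 transcripts, was at 25.6 CPM in CS and 224 CPM in NEVLP2, and Tsc22d3, a glucocorticoid-induced gene, was at 235 and 57.7 CPM. Of the other inflammatory cytokines 4 of 6 were higher in NEVLP2 than in CS and 1 was lower, beside the same 9.63 and 34.8% of genes. Osm, of the IL-6 family, was at 20.6 CPM in CS and 343 CPM in NEVLP2, and Il27 went from 48.3 CPM in NEVLP2 to 4.98 CPM in NEVLPcty.

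The same list genes in conventional dendritic-like cells did not all follow Il1b. Between NEVLP2 and NEVLPcty, where Il1b was 2.24-fold higher, Sod2 went from 1915 to 773 CPM, Nlrp3, the inflammasome sensor, from 158 to 54.9 CPM and Il12b from 104 to 34.5 CPM. Each was at least 2-fold lower, against 7.01% of genes. Others were at least 2-fold higher, against 12.3% of genes. Higher and lower were 2 and 1 of 11 receptors and decoys, 1 and 0 of 6 sensing genes and 2 and 2 of 10 processing genes. They were 0 and 2 of 8 restraint genes, 1 and 2 of 7 induced genes and 0 and 2 of 6 other cytokines. Cluster 20 was 197 of 537 cells of the class in NEVLP2 and 141 of 507 in NEVLPcty.

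The genes most like each cytokine were found by Pearson correlation of log2 levels over 41 units, each a class in a library, among 11633 genes. Units share libraries and depth, so the correlations are a description. Nlrp3 (0.91) and Il1rn (0.91) were nearest to Il1b, followed by Clec7a, Lgals3 and Tlr2. Nearest to Il1rn were Il1b, Aoah, Gpnmb, P2ry2 and Lilrb4. For Il1a they were Kcnj8 (0.91), Lrrc32, Rhoj, Cemip2 and Plk2, and Il1a with Il1b gave 0.26. For Il6 they were Slc1a3 (0.85), Htra4, Il27, Ccl12 and Adamts3. For Il18 they were Slamf8 (0.91), P2ry6, Ms4a6a, Cd68 and Axl, and Il18 with Il1rn gave 0.30.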

How the data were processed

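Each of the 4 libraries was deposited by the authors as a 10x Genomics matrix of whole-number UMI counts per gene and barcode. Cell Ranger 2.1.1 is named in the submitters' processing notes and 6.0.0 in the file header, with a genome build not given in the sources used here. Features with the same symbol were summed. Barcodes under 200 genes or 500 UMIs, or above 20% mitochondrial UMIs, were dropped, and doublets called by Scrublet in each library were removed (3, 326, 208 and 0 in naive, CS, NEVLP2 and NEVLPcty). The calls in naive (0.0909%) and NEVLPcty (0%) did not work, so doublets remain there. Of the deposited barcodes, 40, 75, 77 and 66 in naive, CS, NEVLP2 and NEVLPcty also occurred in another library.

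Each cell was scaled to 10000 counts before a log transform. The 2000 most variable genes, without the 6 cytokines and the 54 genes of 6 pathway lists (52 measured), gave 30 components and the 15 nearest neighbours. Leiden clustering used resolution 1 and seed 1, with no batch integration. A cluster took the name of the marker list with the highest mean log2 fold, of at least 0.5, with at least 3 markers detected in over 10% of cells and no other list holding more of its 10 top genes. A shallow cluster also needed a marker among them.

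Levels are sums of raw counts per class and library, in CPM, for at least 20 cells. Ratios have conditional binomial limits, levels Poisson and shares binomial limits, all exact; a count of 0 was set to 3 for a bound. Il1b, Il1rn, Il6, Il1a and Il18 ratios were taken in classes with at least 5% of the UMIs of the gene in a library. In the lists, genes are named if at least 2-fold apart with an interval that leaves out 1, up to 4 a list and comparison by UMIs; receptors outside this rule were chosen after their values were seen. The 5 nearest genes by correlation of log2(CPM + 10) are named. The members and lists were chosen with earlier results of these data known. The ratio code was tested on simulated data. Clustering ran in scanpy 1.11.5 with leidenalg 0.10.2, igraph 0.11.9 and scikit-learn 1.9.0, intervals in scipy 1.17.1, and the rest in Python 3.11.15 with numpy 2.4.6, pandas 2.3.3 and matplotlib 3.10.9.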

Additional observations from a re-analysis of the deposited data

Results flagged for a closer look

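Il1b was 2.24-fold higher in NEVLPcty than in NEVLP2 in conventional dendritic-like cells and 2.04-fold lower in Kupffer-like cells. It was also lower in monocyte or macrophage-like cells, by 1.83-fold, beside the same 2.24-fold higher level in dendritic-like cells. These results are singled out because 2 classes moved in opposite directions between the same libraries; the difference was not tested, as each library is 1 sample. Il6 was 14.7-fold higher in CS than in naive in monocyte or macrophage-like cells and at least 171-fold lower in Kupffer-like cells, and this difference was not tested either. The first value rests on 1 CS cell with 22 UMIs, and the second on naive cells of low depth, since over cells with at least 2000 UMIs both libraries had 0 Il6 UMIs in Kupffer-like cells.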

How the results depend on the processing

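Values are log2 ratios of CPM. The cause of a shift was not tested. No paired analysis was possible because each group has 1 library. Il1b in Kupffer-like cells, NEVLP2 against CS (3.24), was 3.38 at resolution 0.5, 3.29 with each cell weighing the same, 3.78 with the median gene set to 0 and 3.08 without cluster 21. Against NEVLP2, Il1b of NEVLPcty in these cells (-1.03) was -1.10 with a 10% mitochondrial maximum, with members and lists among the variable genes and with the median gene set to 0, -1.07 without the highest doublet scores, -1.51 and -1.11 at resolutions 0.5 and 2, -1.16 for cells by transcripts and -0.87 without cluster 21. Il6 there (-5.40) was -3.87 with each cell weighing the same. Il1rn in monocyte or macrophage-like cells, NEVLP2 against naive (3.58), was 3.03 at 10% mitochondrial, 3.06 with doublets kept, 3.05 without the highest doublet scores, 3.46 and 3.09 at resolutions 0.5 and 2, 3.18 by transcripts, 2.80 per cell and 4.27 with the median at 0. Il1b in conventional dendritic-like cells, NEVLPcty against NEVLP2 (1.16), was 1.13 at 10% mitochondrial and at resolution 0.5, 1.12 with doublets kept, with members among the variable genes and per cell, 1.19 without the highest doublet scores, 2.03 by transcripts and 1.01 with the median at 0. Il1a in endothelial-like cells, NEVLP2 against CS (1.15), was 0.96 with members among the variable genes, 1.42 by transcripts and 1.81 with the median at 0. Reversed were Il1b and Il6 in Kupffer-like cells, NEVLP2 against naive, at -0.25 and -1.82 per cell, and Il1b in dendritic-like cells, NEVLP2 against CS, at -0.54 by transcripts. Over all 59 ratios and 12 settings, 662 values gave 420 within the counting interval of the main value, 239 outside it and 3 reversed. The settings without cluster 21 and with at least 2000 UMIs were added after seeing the data. Il6 outside NEVLP2 and Tnf in all 4 libraries rest on few UMIs, which limits their precision.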
